A study of Mus musculus with 6 samples.

Results

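The 8 transcription factor genes that help give jaw and tooth mesenchyme its regional identity, the homeobox genes Msx1, Msx2, Barx1, Lhx6, Lhx8, Prrx1 and Prrx2 and the paired-box gene Pax9, were followed in the proximal incisor after Runx2 had been deleted from Gli1-expressing cells. They were taken by gene name, and 8 of 8 were found among the 25700 genes of the deposited count table. All 8 passed the filter on low counts, which left 19264 genes. The conditional knockout mice (cKO) had the genotype Gli1-CreERT2;Runx2fl/fl, and the control mice were Runx2fl/fl, so that both groups carried floxed Runx2 and the controls had no Cre. All were C57BL/6 mice aged 5 weeks, with 3 mice in each group and 1 library from each mouse. Tamoxifen, the drug that activates CreERT2, is listed for both groups at 1.5 mg per 10 g of body weight on 3 days in a row from the age of 1 month, and incisors were collected 1 week after induction. CreERT2 acts only where Gli1, a hedgehog pathway transcription factor, is expressed, so the deletion reaches some cells of the tissue and not others. An effect of Runx2 loss and an effect of the Cre allele cannot be told apart in this design. Replicates are numbered here in the order of the sample list, and a number pairs no cKO mouse with a control.

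In the embryonic jaw, FGF and BMP signals from the oral epithelium help set where several of these genes are expressed in the underlying neural crest mesenchyme. The overlapping domains that result are known as an odontogenic homeobox code. Msx1 and Msx2 mark incisor-forming mesenchyme, whereas Barx1 marks the region of the molars. Mouse teeth lacking Msx1 or Pax9 arrest at the bud stage, and Lhx6 with Lhx8, like Prrx1 with Prrx2, act with partly shared functions in jaw and tooth formation. The mouse incisor keeps growing throughout life from stem cells at its proximal end, where hedgehog-responsive, Gli1-expressing mesenchymal cells supply the pulp and the dentin-forming odontoblasts.

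The libraries held between 53525185 and 66694240 counts, at which 1 count is worth 0.0149 to 0.0186 CPM (counts-per-million, scaled by TMM library factors). Runx2 measured 62.6, 54.0 and 49.0 CPM in the cKO libraries and 79.7, 77.7 and 81.2 CPM in the controls, so it was lower in each cKO mouse, as the labels give it (log2 fold change -0.53, SE 0.089, edgeR adjusted p = 0.0714). Gli1 was at 75.0, 77.9 and 70.6 CPM in cKO libraries, below the 159, 89.7 and 207 CPM of the controls (log2 fold change -1.03, edgeR adjusted p = 0.131). Several libraries stood apart. Control 1 was the 1 male (Xist 0.596 CPM, 4059 counts of the Y-linked gene Ddx3y), and it also held the most skeletal muscle transcripts. The 5 genes of enamel maturation summed to between 1105 and 2625 CPM in the cKO libraries, to 1784 CPM in control 2, and to 116 and 102 CPM in control 1 and control 3. The tissue is labelled dental mesenchyme, yet 4 of 4 genes of secretory ameloblasts, the epithelial cells that lay down enamel, were abundant. They summed to between 22160 and 46680 CPM in cKO libraries and between 60040 and 79540 CPM in controls. The 9 dental epithelium genes summed to between 2087 and 3322 CPM in cKO libraries and between 2122 and 2780 CPM in controls. These sums overlapped, with Krt15 higher and Esrp1 lower in every cKO library. The 9 pan-mesenchyme genes summed to between 2461 and 2908 CPM in cKO libraries and between 1986 and 2578 CPM in controls, with no gene at 0 and overlapping groups. Of these, Vim alone was higher in every cKO library, at 1167, 1422 and 1398 CPM against 1044, 1085 and 798 CPM in controls. Its log2 fold change was 0.45 (edgeR adjusted p = 0.190), and the other pan-mesenchyme genes overlapped between groups. The 4 odontoblast genes summed to between 6627 and 12950 CPM in cKO libraries and between 3021 and 5260 CPM in controls, and the 6 osteoblast genes to between 3339 and 5008 CPM in cKO libraries and between 2123 and 3025 CPM in controls. Both sums were higher in each cKO library, as were 3 of the 4 odontoblast genes and 3 of the 6 osteoblast genes taken singly. The osteoblast genes Sp7, Alpl and Spp1 overlapped between groups (log2 fold change 0.0030, -0.038 and -0.16). The 4 macrophage genes summed to between 195 and 229 CPM in cKO libraries, above the 115 to 152 CPM of the controls. The 4 endothelial genes summed to between 402 and 424 CPM in cKO libraries, also above the 333 to 353 CPM of the controls. The 5 pericyte and smooth muscle genes had overlapping sums, at 708 to 826 CPM in cKO libraries and 791 to 928 CPM in controls. Of these, Cnn1, Acta2 and Myh11, genes of the contractile apparatus, were lower in each cKO library (log2 fold change -2.87, -1.26 and -0.79). Cspg4 was higher in each cKO library (log2 fold change 0.27), and Rgs5 overlapped between groups (log2 fold change 0.0011). The 5 neutrophil genes summed to 40.6, 18.0 and 2.07 CPM in cKO 1, cKO 2 and cKO 3 and to between 1.28 and 2.11 CPM in controls. In a bulk tissue sample, fewer cells of a type and less RNA per cell cannot be told apart, and the part of these other cell types in the results below was not tested.

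Msx1, Pax9 and Prrx1 were 1.40-fold, 1.33-fold and 1.34-fold higher in the cKO libraries. Lhx6 was at 0.739 and Barx1 at 0.625 times the control level, and Msx2, Lhx8 and Prrx2 were at 1.07, 1.08 and 1.14 times that level. None of the 8 genes passed the threshold over all genes tested (edgeR quasi-likelihood test, Benjamini-Hochberg adjusted p under 0.05), by which 5 of 19264 genes, or 0.026%, were called. An unadjusted edgeR p under 0.05 was found for 4 of the 8, against 17.3% of all genes tested. Of these, 3 were higher in cKO mice (Msx1, Pax9 and Prrx1), against 8.71% of all genes, and Lhx6 was lower. In 4 of the 8, namely Msx1, Msx2, Pax9 and Prrx1, every cKO library lay above every control library, whereas 11.1% of all genes tested were placed in that way and 23.1% did not overlap in either direction. DESeq2 called 3 of the 8, again Msx1, Pax9 and Prrx1, all higher in cKO mice, against 3.62% of all genes called higher and 6.89% called in either direction. By contrast, limma voom called 0 of the 8, against 0.0208% of all genes. It put 3 of the 8 at an unadjusted p under 0.05, against 3284 of 19264 genes tested. The median log2 fold change was 0.15 over the 8 genes and 4.85e-05 over all genes tested.

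**Figure D1:**
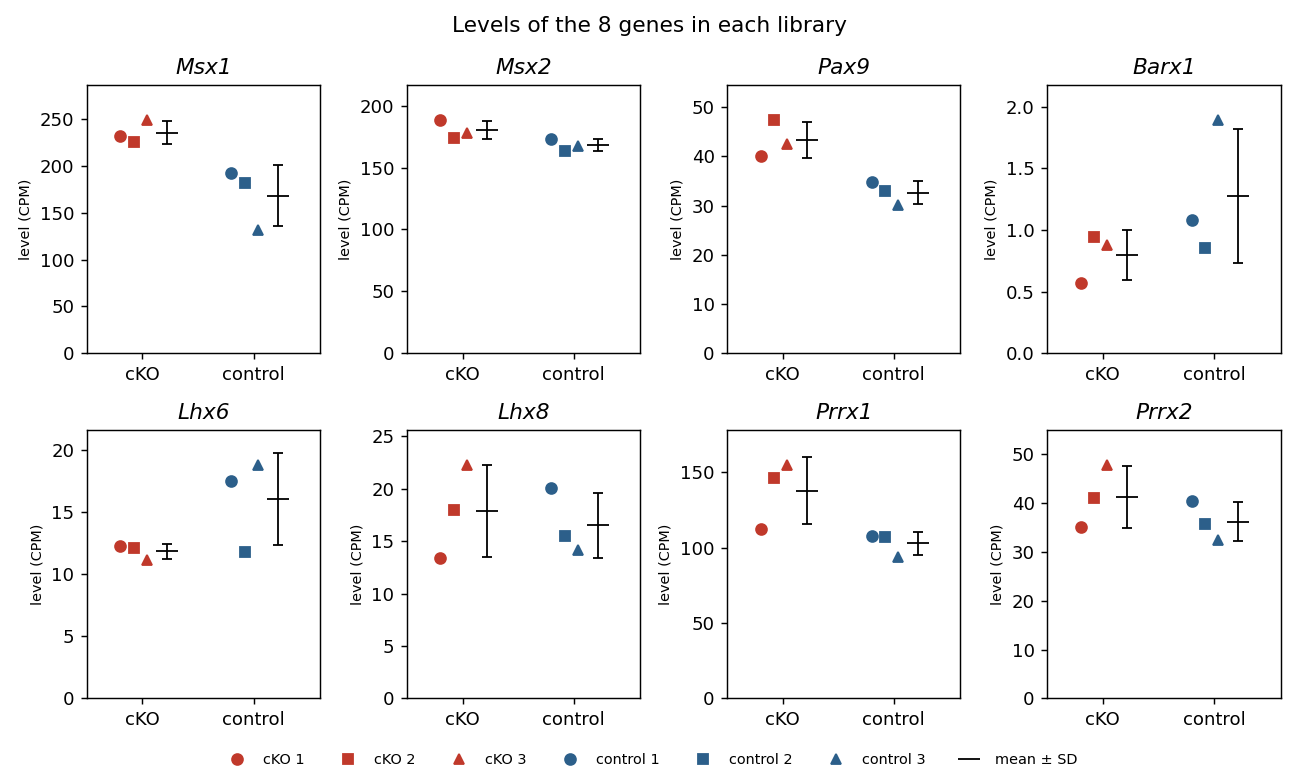
Level of each of the 8 genes in CPM (y axis, from 0) in the 3 cKO libraries (red, left) and the 3 control libraries (blue, right), with the mean and SD of each group in black. The cKO points of Msx1, Msx2, Pax9 and Prrx1 sit above all control points, while the points of Barx1, Lhx6, Lhx8 and Prrx2 overlap.

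To compare one gene with another, levels were divided by exonic length, as RPKM (CPM per kilobase of merged exons). The 8 genes together summed to 177, 179.8 and 193 RPKM in the cKO libraries and 164, 152 and 135 RPKM in the controls. Msx1 alone gave 41.5% ± 0.928 of this sum in cKO libraries and 35.9% ± 3.895 in controls (SD, n = 3 each), and Msx2 gave 30.1% ± 2.28 and 34.2% ± 3.03. In controls the order of mean levels ran from Msx1 (54.4 RPKM) and Msx2 (51.2 RPKM) through Prrx2 (18.5 RPKM), Prrx1 (9.31 RPKM), Lhx8 (6.52 RPKM) and Pax9 (6.45 RPKM) to Lhx6 (3.35 RPKM) and Barx1 (0.912 RPKM). Msx1 and Msx2 overlapped in the control libraries but not in the cKO libraries, where the lowest Msx1 value of 72.9 RPKM lay above the highest Msx2 value of 57.5 RPKM. Lhx8 and Pax9 overlapped in both groups. The remaining neighbours in the order were apart within each group. Prrx1 has by far the longest merged exons of the 8 (11066 bases, against 1961 for Prrx2), and a length summed over all annotated exons lowers the RPKM of a gene whose shorter transcripts prevail.

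**Figure D2:**
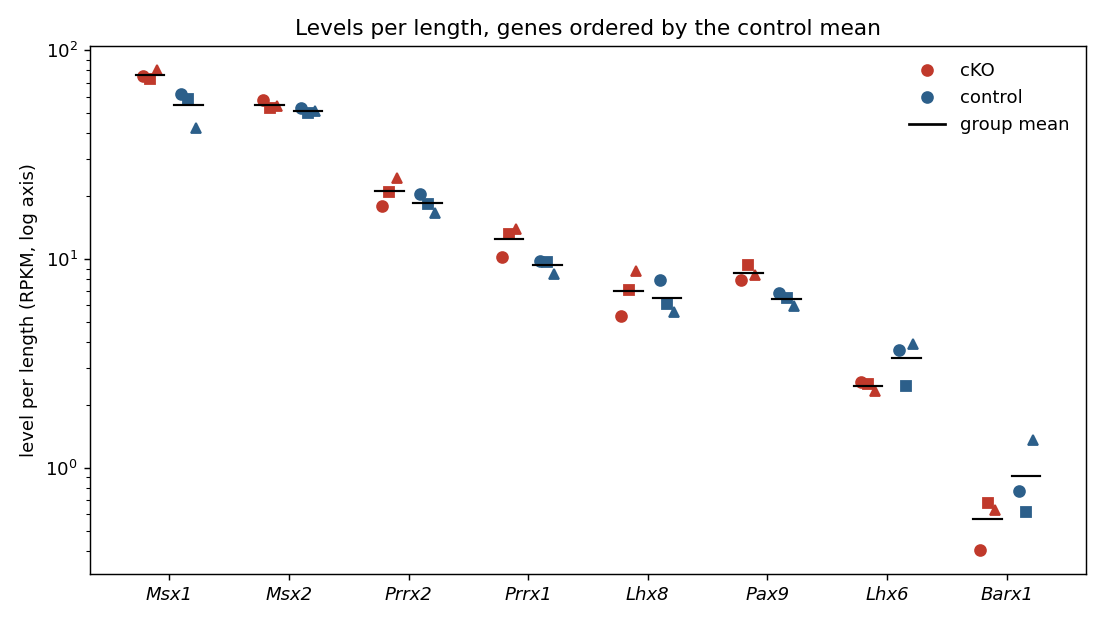
Level per exonic length in RPKM (y axis, log scale) for the 8 genes ordered by their control mean, with cKO libraries in red left of control libraries in blue and group means as black bars. Msx1 and Msx2 lead in both groups, and Barx1 lies lowest, at 0.405 to 0.675 RPKM in cKO libraries and 0.613 to 1.35 RPKM in controls.

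Sequence before the RefSeq start is shown for Msx1, Pax9 and Prrx1, because these are the members that DESeq2 called higher in cKO libraries and that also lay apart by library. Each is the RefSeq window of 250 bases before the transcription start in GRCm38.p6, with bases that GENCODE M21 puts in an exon of the gene left out. They lie at chr5:37824586-37824835 on the minus strand for Msx1, at chr12:56695221-56695470 on the plus strand for Pax9 and at chr1:163313711-163313900 on the minus strand for Prrx1, where 190 bases remained. The Pax9 window lies before the RefSeq start but inside the span of Pax9 in the deposited table, between its GENCODE exons. Capitals mark the homeodomain core TAATTA.
Msx1: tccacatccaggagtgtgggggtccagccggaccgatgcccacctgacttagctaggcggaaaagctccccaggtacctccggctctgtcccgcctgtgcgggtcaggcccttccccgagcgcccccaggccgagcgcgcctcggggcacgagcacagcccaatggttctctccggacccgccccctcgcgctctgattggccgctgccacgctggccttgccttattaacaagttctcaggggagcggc
Pax9: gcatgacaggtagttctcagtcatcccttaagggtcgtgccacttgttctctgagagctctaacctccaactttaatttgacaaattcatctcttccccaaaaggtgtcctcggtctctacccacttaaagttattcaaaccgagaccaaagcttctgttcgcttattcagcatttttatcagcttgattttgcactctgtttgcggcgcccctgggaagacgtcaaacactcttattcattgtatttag
Prrx1: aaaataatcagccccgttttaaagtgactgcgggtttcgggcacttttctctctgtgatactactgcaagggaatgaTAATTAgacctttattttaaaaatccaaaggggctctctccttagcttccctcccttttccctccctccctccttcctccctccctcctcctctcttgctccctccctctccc
The RUNX core TGTGGT, sought on both strands, was in 0 of the 8 windows and in 14.2% of 27025 RefSeq promoters of the same length. TAATTA, which reads the same on both strands, was in 2 of the 8, Prrx1 at 173 and Msx2 at 187 bases before the start, and in 4.90% of all promoters. These counts are over the whole windows of 250 bases, and those of Msx2 and Prrx2 lie wholly within GENCODE M21 exons of their own gene. With the RUNX core in 0 of the 8 windows, no overlap of the 2 motifs could occur. GC content ran from 43.6% in the Pax9 window to 85.6% in the Barx1 window.

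Msx1, a homeodomain repressor that maintains Bmp4 in tooth mesenchyme, had the highest level of the 8 in cKO libraries (chromosome 5, 37820485 to 37824583, minus strand, build mm10). It measured 232, 226 and 249 CPM in the cKO libraries, against 192, 181 and 132 CPM in the controls. The 3 cKO values lay close together and above all controls, and control 3 was lowest. The mean was 235.5 ± 12.2 CPM in cKO and 168 ± 32.1 CPM in control mice (SD, n = 3 each), a 1.40-fold difference (log2 fold change 0.48, SE 0.14, 95% interval 0.16 to 0.81, edgeR adjusted p = 0.1499). DESeq2 called it (adjusted p = 0.0196), but not without cKO 1, cKO 2 or cKO 3 (DESeq2 adjusted p = 0.0667, 0.0709 and 0.131) nor with the enamel maturation genes as a covariate, where the log2 fold change was 0.36. Scaled to pan-mesenchyme genes, the log2 fold change was 0.37 (edgeR adjusted p = 0.395).

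Msx2, its close relative, which is also expressed by dental epithelium and in bone-forming sutures, differed least in relative terms (chromosome 13, 53466884 to 53473074, minus strand). It measured 188, 174 and 178 CPM in the cKO libraries and 173, 163 and 167 CPM in the controls. The groups did not overlap, although cKO 2 lay just above control 1. With means of 180.1 ± 7.47 CPM in cKO and 168 ± 4.88 CPM in control mice (SD, n = 3 each), the log2 fold change was 0.10 (SE 0.056, 95% interval -0.031 to 0.23, edgeR adjusted p = 0.405), and it was -0.028 when libraries were scaled to pan-mesenchyme genes.

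Pax9, a paired-box factor that acts upstream of Msx1 and Bmp4 in the tooth bud, had the lowest p of the 8 (chromosome 12, 56691767 to 56712822, plus strand). Its level was 40.2, 47.4 and 42.6 CPM in the cKO libraries and 34.8, 32.9 and 30.1 CPM in the controls. Each cKO library lay above each control, with cKO 1 and control 1 nearest to each other. The mean was 43.4 ± 3.71 CPM in cKO and 32.6 ± 2.35 CPM in control mice (SD, n = 3 each), a 1.33-fold difference (log2 fold change 0.41, SE 0.084, 95% interval 0.21 to 0.61, edgeR adjusted p = 0.0881). By DESeq2 it was called with all libraries (adjusted p = 0.00219) and with each of the 6 left out in turn (adjusted p between 0.00148 and 0.0320), but not with the enamel maturation genes as a covariate (log2 fold change 0.41, DESeq2 adjusted p = 0.465). When libraries were scaled to pan-mesenchyme genes, the log2 fold change fell to 0.28 (edgeR adjusted p = 0.560). Of its exonic bases 3.74% are shared with Slc25a21 on the opposite strand, and whether the counting used strand is not given in the sources used here.

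Prrx1, a paired-type homeodomain factor of limb, jaw and other connective tissue mesenchyme, was also higher in each cKO library (chromosome 1, 163245119 to 163313710, minus strand). It measured 113, 147 and 155 CPM in the cKO libraries and 108, 107 and 94.2 CPM in the controls. The cKO 1 value lay near the controls, and the other cKO values stood well above them. The mean was 138 ± 22.4 CPM in cKO and 103 ± 7.65 CPM in control mice (SD, n = 3 each), with a log2 fold change of 0.42 (SE 0.12, 95% interval 0.13 to 0.71, edgeR adjusted p = 0.158). The DESeq2 call (adjusted p = 0.0319) held without cKO 1 (adjusted p = 6.98e-06) and was lost without each of the other 5 libraries (DESeq2 adjusted p between 0.0698 and 0.220) and with the enamel maturation covariate, where the fold was nearly the same (log2 fold change 0.43, DESeq2 adjusted p = 0.769). Scaling to pan-mesenchyme genes lowered the log2 fold change to 0.28 (edgeR adjusted p = 0.532).

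Prrx2, which shares functions with Prrx1 in the lower jaw, did not separate the groups (chromosome 2, 30834972 to 30881251, plus strand). It measured 35.0, 41.0 and 47.8 CPM in the cKO libraries and 40.3, 35.8 and 32.5 CPM in the controls. The cKO 1 library lay below 2 of the 3 controls. Its log2 fold change was 0.19 (SE 0.13, 95% interval -0.11 to 0.49, edgeR adjusted p = 0.499). The value was 0.071 without cKO 3, 0.116 without control 3, 0.298 without cKO 1 and 0.049 when scaled to pan-mesenchyme genes.

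Lhx6, a LIM-homeodomain factor of tooth-forming mesenchyme that is also expressed in interneurons of the forebrain, had a lower mean in cKO mice (chromosome 2, 36081953 to 36105408, minus strand). It measured 12.3, 12.1 and 11.2 CPM in the cKO libraries and 17.6, 11.9 and 18.8 CPM in the controls. The cKO values were nearly equal, and control 2 lay among them while control 1 and control 3 were higher. The mean was 11.9 ± 0.612 CPM in cKO and 16.1 ± 3.72 CPM in control mice (SD, n = 3 each), with a log2 fold change of -0.44 (SE 0.17, 95% interval -0.83 to -0.039, edgeR adjusted p = 0.251). Control 2 was also the control in which enamel maturation genes were as high as in cKO libraries. With all libraries DESeq2 did not call Lhx6 (adjusted p = 0.143). Without control 2, the control lying among the cKO values, the log2 fold change was -0.62 (edgeR adjusted p = 0.0639, DESeq2 adjusted p = 9.70e-06). It was -0.36 without control 1 and -0.31 without control 3 (DESeq2 adjusted p = 0.412 and 0.590). Leaving out cKO 1, cKO 2 or cKO 3 gave -0.46, -0.44 and -0.39. With the enamel maturation genes as a covariate the log2 fold change was -0.013 (edgeR adjusted p = 0.9997). That covariate was high in every cKO library and, among controls, only in control 2, so this fit cannot separate it from genotype. The part of the enamel-stage tissue in the Lhx6 difference was not tested. Of the Lhx6 exonic bases 2.16% are shared with the small RNA gene Gm27953.

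Lhx8, the LIM-homeodomain partner of Lhx6 in the jaw, had overlapping groups (chromosome 3, 154306294 to 154330659, minus strand). It measured 13.4, 18.0 and 22.2 CPM in the cKO libraries and 20.0, 15.4 and 14.1 CPM in the controls. The cKO libraries held both the lowest and the highest value. The log2 fold change of 0.11 (SE 0.20, 95% interval -0.36 to 0.59, edgeR adjusted p = 0.818) was -0.073 without cKO 3 and -0.032 when scaled to pan-mesenchyme genes.

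Barx1, the factor of molar-forming and stomach mesenchyme, had the lowest level of the 8 (chromosome 13, 48662998 to 48666507, plus strand). It had 38, 59 and 55 counts in the cKO libraries and 58, 57 and 112 counts in the controls. Control 3 was well above the other 5 libraries, and the groups overlapped. Means of 0.797 ± 0.202 CPM in cKO and 1.28 ± 0.545 CPM in control mice (SD, n = 3 each) gave a log2 fold change of -0.68 (SE 0.35, 95% interval -1.50 to 0.14, edgeR adjusted p = 0.370). It was -0.28 without control 3 and 0.040 with enamel maturation genes as a covariate.

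**Figure D3:**
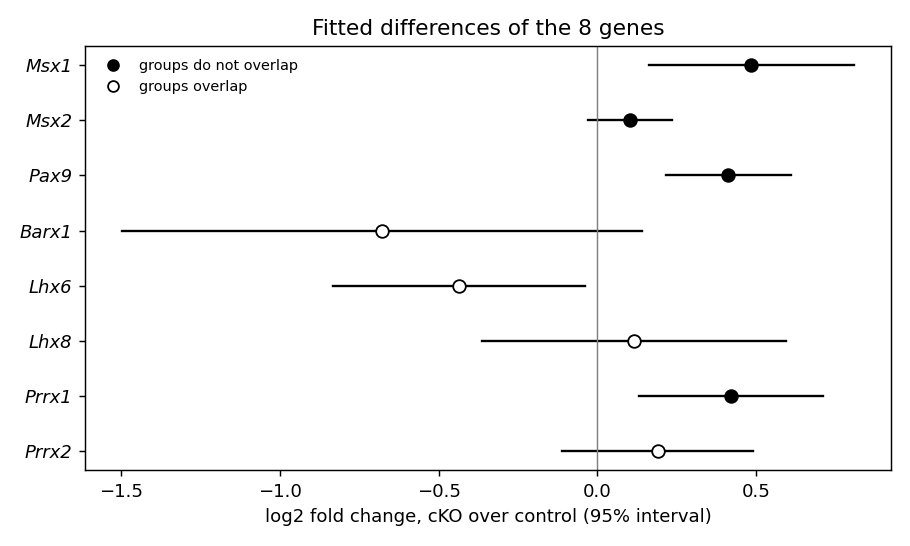
Fitted log2 fold change of each gene, cKO over control (x axis), with its 95% interval as a line. Filled points mark genes whose cKO and control libraries do not overlap, and the intervals of Msx1, Pax9, Prrx1 and Lhx6 leave out 0, with no gene passing the threshold adjusted over 19264 genes.

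Ratios within a library do not depend on how libraries are scaled, so the paralogs were set against each other. The log2 ratio of Msx1 to Msx2 counts was 0.30, 0.38 and 0.49 in the cKO libraries and 0.15, 0.15 and -0.34 in the controls. Every cKO ratio was higher than every control ratio, by 0.40 in the mean (exact two-sided permutation test, p = 0.1, the smallest that 3 against 3 allows, and 0.15 after adjustment over the 3 ratios), and by 0.24 without control 3. Per length this is 1.38 times as much Msx1 as Msx2 in cKO and 1.05 times in control mice. The log2 ratio of Prrx1 to Prrx2 was 1.68, 1.84 and 1.70 in the cKO libraries and 1.42, 1.58 and 1.54 in the controls. These groups were also apart, with a difference of 0.23 (exact two-sided permutation test, p = 0.1, adjusted 0.15) that lay between 0.18 and 0.26 when a library was left out. For Lhx6 over Lhx8 the log2 ratio was -0.12, -0.57 and -0.99 in the cKO libraries and -0.19, -0.38 and 0.42 in the controls, and the groups overlapped (difference -0.51, exact two-sided permutation test, p = 0.3, adjusted 0.3). That difference was -0.28 without control 3, -0.29 without cKO 3 and -0.73 without cKO 1.

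**Figure D4:**
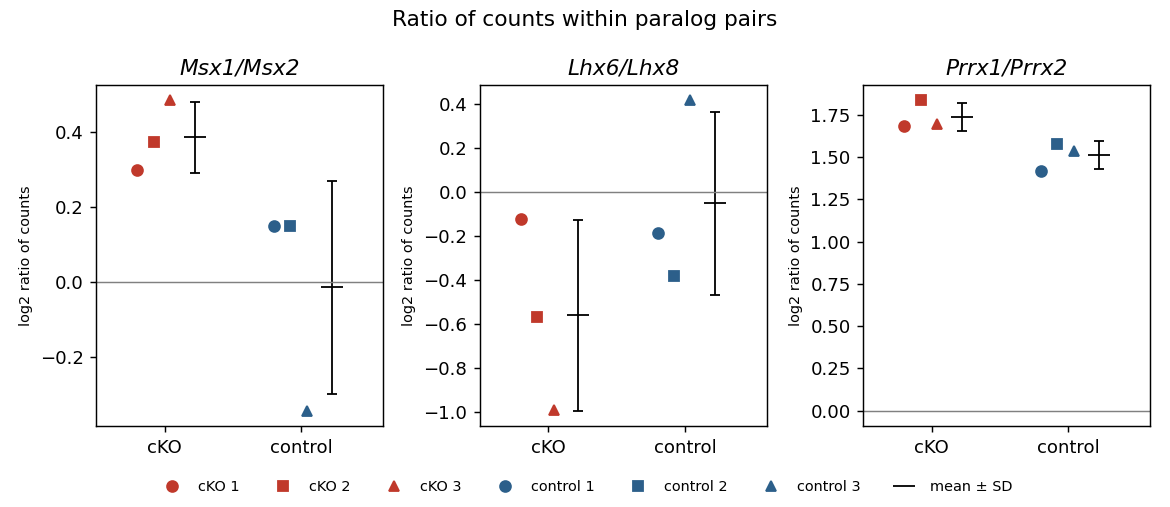
Log2 ratio of counts (y axis, own range in each panel, grey line at 0) for Msx1 over Msx2, Lhx6 over Lhx8 and Prrx1 over Prrx2 in cKO libraries (red, left) and control libraries (blue, right), with mean and SD in black. For Msx1/Msx2 and Prrx1/Prrx2 all 3 cKO ratios lie above the 3 control ratios, and for Lhx6/Lhx8 they overlap.

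The transcripts whose levels followed each member most closely over the 6 libraries were taken from about 11677 genes with a mean of at least 5 CPM, by Pearson r of log2 CPM, as a description. Genes with names starting with Gm and digits or ending in Rik were left out of this choice. The libraries share the split by genotype, and no test was made of these values. For Msx1 they were the carnitine acetyltransferase Crat (r = 0.996) and the scavenger receptor family gene Ssc5d (0.996). For Msx2 they were the mitochondrial fusion gene Mfn2 (0.993) and Wtip (0.983). For Pax9 they were Ly6c1 (0.995), a surface protein of endothelial and myeloid cells, and Arhgap24 (0.995). For Prrx1 they were Kctd17 (0.994) and the potassium channel gene Kcnd1 (0.993), and for Prrx2 the retinoic acid receptor gene Rarg (0.992) and Zfp982 (0.990). For Lhx8 the nearest were the potassium channel gene Kcnj2 (0.994) and Eid1 (0.991), for Lhx6 Tubgcp5 (0.999) and Mrvi1 (0.991), and for Barx1 Dctpp1 (0.998) and the translation factor Eif5a (0.994).

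Among 35 other transcription factors of jaw and facial mesenchyme, 32 were tested and 0 were called by edgeR, with 3 higher and 1 lower in cKO mice at an unadjusted p under 0.05, against 17.3% of all genes in either direction. Their median log2 fold change was 0.056, and 3 of 32 did not overlap between groups, against 23.1% of all genes. Hand2, which patterns the lower jaw, measured 132, 150.1 and 162 CPM in the cKO libraries and 109, 115 and 83.4 CPM in the controls. All cKO values were above the controls (log2 fold change 0.53, edgeR adjusted p = 0.120), and DESeq2 called it (adjusted p = 0.00662). Alx1, a homeobox factor of the frontonasal and periocular mesenchyme, had a log2 fold change of 0.33 (edgeR adjusted p = 0.206). Six2 was below 1 CPM in each library, with a log2 fold change of -1.84 (edgeR adjusted p = 0.214) and overlapping groups.

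LIM-homeodomain proteins such as Lhx6 and Lhx8 work through the adaptor Ldb1 and its stabilising partners, while LIM-only proteins compete for the same adaptor. A list of 13 such genes also held Rlim and Lhx2, itself a LIM-homeodomain gene. Of the 13, 11 were tested and edgeR called 0, with a median log2 fold change of 0.19. At an unadjusted edgeR p under 0.05, 6 were higher and 0 lower. Over all genes 8.71% were higher and 17.3% differed in either direction by that measure. The groups did not overlap in 6 of the 11, all of them higher in cKO libraries, against 11.1% of all genes placed that way and 23.1% in either direction. Lhx2 was in both counts, at a low level of 0.731, 0.752 and 0.833 CPM in the cKO libraries. In the controls it measured 0.354, 0.662 and 0.473 CPM. The adaptor-binding protein Lmo2 measured 16.8, 17.1 and 17.3 CPM in the cKO libraries and 14.2, 13.5 and 14.9 CPM in the controls. It did not overlap between groups (log2 fold change 0.27, edgeR adjusted p = 0.128) and was called by DESeq2 (adjusted p = 0.0309). Ssbp2, which protects Ldb1 from breakdown, had a log2 fold change of 0.25 (edgeR adjusted p = 0.195), and Ldb2 one of 0.31 (edgeR adjusted p = 0.199). Lmo2 and Ldb2 are also known from endothelial cells, whose marker sum was higher in every cKO library, as given above, and the part of those cells in these values was not tested.

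Of 17 genes for signals that act on some of the 8 genes or lie downstream of them, 17 were tested and edgeR called 0. At an unadjusted edgeR p under 0.05, 2 were higher and 4 lower, against 17.3% of all genes in either direction. Their median log2 fold change over the 17 was 0.080. The groups did not overlap in 8 of the 17, with 3 higher and 5 lower in cKO libraries, against 23.1% of all genes. Shh, the hedgehog ligand made by dental epithelium, measured 211, 163 and 123 CPM in the cKO libraries and 246, 274 and 352 CPM in the controls. Each cKO value lay below each control (log2 fold change -0.81, edgeR adjusted p = 0.131, DESeq2 adjusted p = 0.00356). Sfrp2, a secreted Wnt antagonist, measured 294, 203 and 94.6 CPM in the cKO libraries and 842, 345 and 827 CPM in the controls. Its groups were apart, with control 2 nearest to the cKO libraries (log2 fold change -1.77, edgeR adjusted p = 0.138, DESeq2 adjusted p = 0.0242). Bmp7 measured 136 ± 3.76 CPM in cKO and 158 ± 6.00 CPM in control mice (SD, n = 3 each; log2 fold change -0.22, edgeR adjusted p = 0.116, DESeq2 adjusted p = 0.0169). Wnt5a, a Wnt ligand of dental mesenchyme named here because DESeq2 called it, had a log2 fold change of 0.42 (DESeq2 0.43, adjusted p = 0.0327, edgeR adjusted p = 0.167). Bmp4, the mesenchymal signal that Msx1 and Pax9 maintain in the tooth bud, was looked up after the values were seen. It measured 88.4, 80.2 and 73.3 CPM in the cKO libraries and 72.8, 79.8 and 74.7 CPM in the controls, with overlapping groups (log2 fold change 0.090, SE 0.078, 95% interval -0.094 to 0.27, edgeR adjusted p = 0.610).

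**Figure D5:**
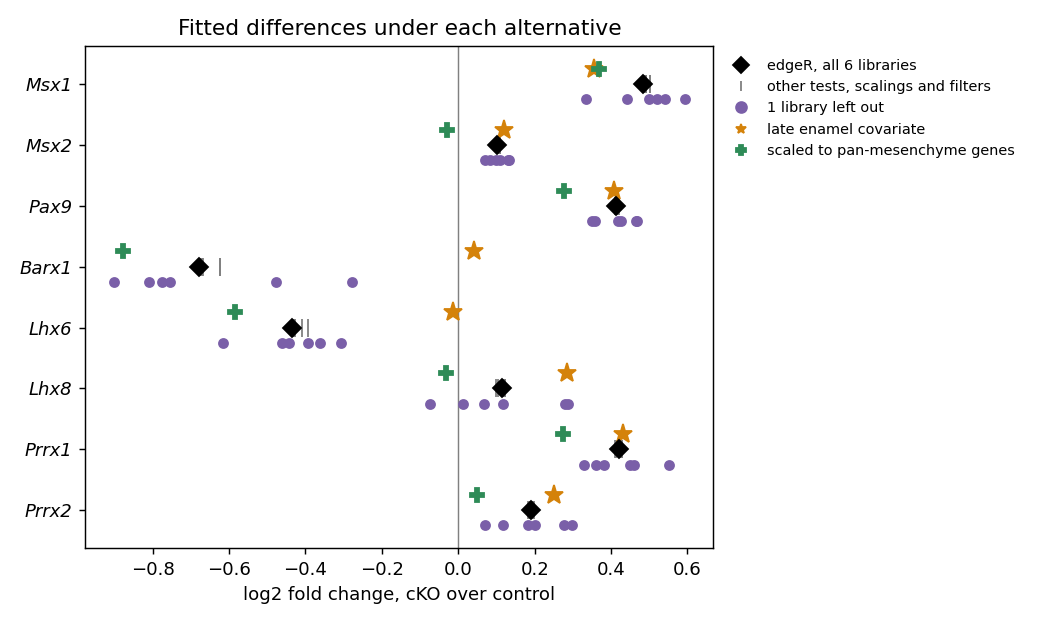
Log2 fold change of each of the 8 genes, cKO over control (x axis), from edgeR with all 6 libraries (black diamonds), other tests, scalings and filters (grey ticks), 1 library left out (purple), the enamel maturation covariate (orange stars) and scaling to pan-mesenchyme genes (green crosses). Msx1, Pax9, Prrx1 and Prrx2 lie above 0 and Lhx6 below 0 in each setting drawn, while Msx2, Lhx8 and Barx1 cross 0 in at least 1.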

How the data were processed

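RNA of the proximal incisor was sequenced as single-end reads of 75 cycles from RNA with integrity numbers above 9.0, per the labels' protocols. STAR 2.6.1d, Partek and build mm10 are named in the submitters' processing notes, with annotation and counting settings not given in the sources used here. Estimated counts for 25700 genes were deposited by the authors; in each library 45.6% to 48.0% of values were whole (tolerance 1e-09). They also deposited a normalized signal for 20676 genes, which equals the estimated count plus 1 times 1 factor per library (100% of values within 0.1%).

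Estimated counts were rounded, filtered with filterByExpr (minimum count 10, minimum total 15) and scaled by TMM. The test was edgeR 4.0.16 quasi-likelihood (R 4.3.3), two-sided, on all 6 libraries without covariates, with Benjamini-Hochberg adjustment over 19264 genes and a threshold of 0.05. Each standard error is the fold change divided by the root of F. Alternatives used DESeq2 1.42.0 (1523 genes without an adjusted p counted as not called), limma 3.58.1, other scalings and filters, and 1 library left out. Deposited end positions were reduced by 1. Exon lengths and shared bases come from GENCODE M21, and promoters from RefSeq (GRCm38.p6, 8 of 8 matched), on the assembly of mm10. Replicate pairs differed beyond counting noise (chi-square per degree of freedom 50.8 to 80.8), so none was counted as a repeat. The statistics were tested on simulated data.

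The 8 genes and all gene lists were chosen with earlier results of these data known. Named beside the 8 are the 3 genes of lowest p in each list and the 2 genes of highest r with each member, Gm and Rik names left out. Replicates are separate animals, since each has a mouse number of its own in the labels.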

Additional observations from a re-analysis of the deposited data

How the results depend on the processing

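The edgeR count of 0 of the 8 genes called held in 14 of 15 alternatives and was 3 with DESeq2 (Msx1 0.49, Pax9 0.41 and Prrx1 0.42 on the log2 scale). With 1 library left out, a check added after seeing the data, DESeq2 called 1 to 3 of the 8 and 713 to 1281 of all genes, and with the enamel maturation covariate 0 of the 8 and 96 of all genes. This covariate was high in every cKO library and low in control 1 and control 3, so fits with it cannot separate it from genotype. Directions turned for Msx2 (-0.028) and Lhx8 (-0.032) when scaled to pan-mesenchyme genes, which moved the median of all genes by -0.14, for Barx1 with the enamel maturation covariate (0.040), and for Lhx8 without cKO 3 (-0.073, and up to 0.29 without another library). The cause was not tested. Among all genes edgeR called 5 (4 higher, 1 lower), against 1327 with DESeq2 (698 higher, 629 lower), 148 with pan-mesenchyme scaling (59 higher, 89 lower) and 0 with the covariate (1243 at an unadjusted p under 0.05). Leaving out 1 library gave 0 to 72 calls, with 0 without cKO 1, cKO 2 or control 1 (3278, 2700 and 3103 at an unadjusted edgeR p under 0.05), 8 without cKO 3, 3 without control 3 and 72 without control 2. Barx1 did not pass the filter of 1 CPM in 3 libraries and has no value there. No paired analysis was possible because no number in the labels is shared between a cKO and a control mouse. The labels' protocol speaks of paired samples but names no pair, and all p-values here leave such pairs aside. Counting error weighs most on Barx1, at 38 to 112 counts per library.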

Other observations

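Over the 6 libraries, 16 of the 28 pairs of members had a Pearson r of log2 CPM above 0, given as a description, since the libraries share the split by genotype and their cell makeup. The highest values were those of Lhx8 with Prrx2 (0.94), Pax9 with Prrx1 (0.90) and Msx1 with Pax9 (0.87), and the lowest that of Msx1 with Barx1 (-0.82). Control 3 had the lowest level of Msx1, Pax9, Prrx1 and Prrx2 and the highest of Barx1 and Lhx6 among the 6 libraries. Its sum over the 8 genes was also the lowest, at 135 RPKM, against 152 to 164 RPKM in the other controls. It also had the highest sum of secretory ameloblast genes (79540 CPM) and the lowest of pan-mesenchyme genes (1986 CPM), and the part of these in its levels was not tested.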
